A study of Mus musculus with 34 samples.

Results

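The interior of mouse chromosome 12 between the gene Mycn and the immunoglobulin heavy chain locus Igh was examined for contact with Igh in the plasmacytomas PCT4961 and TEPC1165. It was defined by position alone, as the 200 kb windows of chromosome 12 that lie whole within 12:14200001-109800000 of the mouse genome build mm9. The tables held 476 such windows of 12836 in the genome, and 30812 of 823057 HindIII fragments. The span has room for 478 windows, and the 2 at 42.2 to 42.6 Mb were not analysed here. Contact was measured by circular chromosome conformation capture (4C), in which cross-linked DNA is cut with HindIII (an enzyme that cuts at AAGCTT), ligated, and read outward from a chosen bait fragment. A read therefore marks a fragment that had been ligated to the Igh bait, and a detected fragment is one with at least 1 read.

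Both tumors came from Balb/c mice per the labels, and no treatment is named for either. PCT4961 carries the genotype AID-/- BclXL, and the labels give TEPC1165 no genotype. AID is the enzyme that starts class switching and hypermutation of antibody genes, and BclXL is a protein that protects cells from death. Each tumor had 2 libraries, with nothing in the labels on separate cultures, on clones or on what drives BclXL. The p-values below therefore set the difference between the tumors against the spread of these libraries, and that spread may be technical. The other 30 of the 34 samples of the series were not used here. 4C tables hold no expression, so the plasma cell identity of the tumors could not be checked by marker genes. The bait could be checked: the highest window of chromosome 12 was 12:114400001-114600000 in all 4 libraries.

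Igh lies near the end of mouse chromosome 12 that is away from the centromere, and Mycn, a relative of the oncogene Myc, lies near the other end. Within a chromosome, contact between 2 sites usually falls with the distance between them. Contact within 1 chromosome usually exceeds contact between chromosomes, since each chromosome keeps to a territory of its own. Beyond the nearest few megabases it comes in blocks, because active and inactive stretches of a chromosome gather in separate compartments. Going from Mycn to Igh, the RefSeq gene order (GRCm38) passes Id2 and Sox11, then Nkx2-1 and Foxa1, which are transcription factors of lung and liver development, among other genes. Further on follow Hif1a (the response to low oxygen), Max (the partner of Myc proteins), Rad51b (DNA repair), Fos and Batf (AP-1 family factors). Closest to Igh come Dicer1 (microRNA processing), Tcl1 and Bcl11b (lymphocyte genes), Yy1, Dlk1, Meg3 and Traf3. The stretch from Yy1 to Traf3 is counted here to the flank of Igh and not to the interior. No table in mm9 was held that places these genes in windows, so contact is given by position.

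The libraries held 1668589 to 2178689 reads. Outside the bait region (the 11 windows within 1 Mb of the bait window) lay 1048003 of 1668589 and 1366466 of 2178689 reads in PCT4961. In TEPC1165 it was 1735257 of 1890718 and 1569886 of 1776498, so the bait region took a larger share in PCT4961. Levels below are raw reads, or RPM, reads scaled to the library's total outside the bait region. Compared with scaling by all reads, this raises PCT4961 relative to TEPC1165. Libraries of different tumors that carry the same replicate number resembled each other more than the libraries of 1 tumor did. A window was counted as seen in a library when it had at least 10 reads on at least 2 detected fragments. On the 17 autosomes other than 12 and 15, 54.6% to 80.9% of the windows seen in a library were also seen in the library of the same number from the other tumor. Only 20.9% to 33.4% were also seen in the second library of the same tumor, and 20.9% to 33.3% in the library that differed in both. Results are therefore also given for pairs of libraries that differ in tumor and number. The part of this sharing in the differences between tumors, and in the windows found in both, was not tested.

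**Figure D1:**
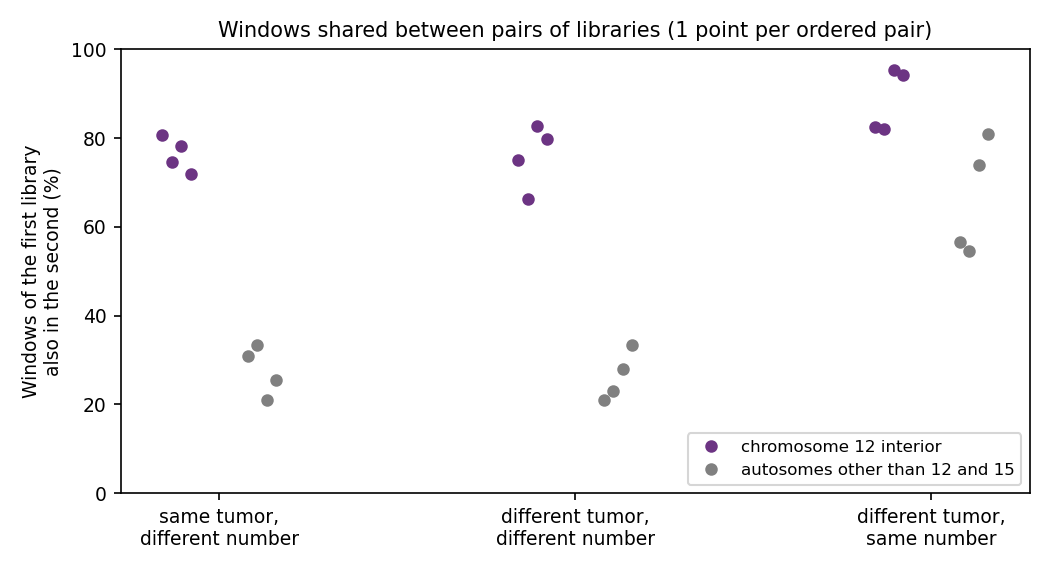
Each point is an ordered pair of libraries, and the vertical axis gives the percentage of windows seen in the first library (at least 10 reads and 2 fragments) that were also seen in the second. Interior pairs of 1 tumor lie at 72.0% to 80.6%, interior pairs that differ in tumor and number at 66.4% to 82.8%, and interior pairs of the same number at 82.0% to 95.4%, each above the matching pairs on other autosomes.

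The Igh bait contacted the interior far more than other chromosomes in all 4 libraries. The interior took 165933 and 218142 reads in PCT4961 and 170358 and 146030 in TEPC1165, which is 349, 458, 358 and 307 reads per window. The autosomes other than 12 and 15 took 36.2 and 45.7 reads per window in PCT4961 and 69.5 and 52.3 in TEPC1165. The interior was thus 9.63-fold and 10.04-fold above them in PCT4961 and 5.15-fold and 5.87-fold above them in TEPC1165. The lowest interior excess was that of the first TEPC1165 library.

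The excess was spread over many fragments. Of the interior fragments, the PCT4961 libraries detected 5.37% (95% Wilson interval 5.13 to 5.63) and 5.57% (5.32 to 5.83). For TEPC1165 the share was 4.48% (4.26 to 4.72) and 4.53% (4.31 to 4.77). On the other autosomes 0.935%, 0.855%, 0.860% and 0.717% were detected in the same order. These intervals cover counting error only. Taken one by one, the other autosomes detected 0.57% to 1.26% of their fragments, so the interior lay above each of them in every library. A median interior window held 17 and 16.5 reads in PCT4961 and 6 in each TEPC1165 library, against 0 elsewhere. Reads were present in 320, 308, 313 and 291 of the 476 windows, and 89 windows had none in any library.

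The excess was also present away from both ends of the interval. In the 355 windows more than 20 Mb from the bait window and more than 10 Mb from the window 12:12800001-13000000 next to Mycn, reads were 7.81-fold, 8.06-fold, 4.56-fold and 5.06-fold above other autosomes, and the share of detected fragments 5.07-fold, 5.67-fold, 4.57-fold and 5.51-fold. These 355 windows include the 100 windows at 25 to 45 Mb from Igh. Those alone held 37.6% and 35.5% of the interior reads in PCT4961 and 42.4% and 38.0% in TEPC1165. Beyond 45 Mb the share of detected fragments was 1.81%, 1.80%, 1.48% and 1.54%, so the excess there was smaller. For comparison, chromosome 15 without its stretch at 61 to 66 Mb (478 windows) had 58.5 and 71.5 reads per window in PCT4961 and 504 and 372 in TEPC1165. Its detected fragments were 2.64%, 2.39%, 3.002% and 2.65%, below the interior share in every library. In TEPC1165 reads per window on that stretch of chromosome 15 exceeded those of the interior, while fewer of its fragments were detected.

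By reads, the 2 PCT4961 libraries had a larger interior excess than the 2 TEPC1165 libraries, and by detected fragments the tumors overlapped. The log2 ratio of reads per window to other autosomes was 3.30 ± 0.042 for the PCT4961 pair and 2.46 ± 0.13 for the TEPC1165 pair (SD, n = 2 each), which differ by 0.84. A two-sided exact permutation test over the libraries gave p = 0.33, the smallest that 2 against 2 libraries can give. The log2 ratio of detected fragments was 2.61 ± 0.13 and 2.52 ± 0.20 (SD, n = 2 each), a difference of 0.091 (exact permutation p = 0.667). Reads per detected fragment were 100.3 and 127 in PCT4961 and 123 and 105 in TEPC1165 within the interior. On the other autosomes they were 60.4 and 83.3 in PCT4961 and 126 and 114 in TEPC1165. The tumors overlapped in this measure within the interior and did not overlap elsewhere.

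Contact fell along the interior with distance from Igh, but in steps and not evenly. The windows were grouped by distance of their start from that of the bait window into 19 full bins of 5 Mb, with 25 windows each and 23 in the bin at 70 to 75 Mb. Reads were highest at 10 to 15 Mb from the bait window (99.6 to 104.6 Mb) in PCT4961, with 1302 and 1461 RPM per window, and in that bin TEPC1165 had 736 and 675. The next bin towards Mycn, at 15 to 20 Mb (94.6 to 99.6 Mb), had only 127 and 147 RPM per window in PCT4961 and 162 and 209 in TEPC1165. This trough lay below both of its neighbours in 3 of 4 libraries. By reads, its rise on the Mycn side was clear only in PCT4961, where the bin at 20 to 25 Mb had 718 and 688. In TEPC1165 that bin had 169 and 206, about as low as the trough.

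A second rise stood at 25 to 30 Mb (84.6 to 89.6 Mb), with 894 and 996 RPM per window in PCT4961 and 738 and 487 in TEPC1165. From there the level came down to 386 and 309 in PCT4961 and 315 and 324 in TEPC1165 at 40 to 45 Mb. In the next bin, at 45 to 50 Mb (64.6 to 69.6 Mb), it was 98.8, 32.8, 43.2 and 46.3. The median 5 Mb bin of other autosomes had 26.98 and 23.5 RPM per window in PCT4961 and 33.3 and 25.3 in TEPC1165. The level at 45 to 50 Mb lay between that median and the 90th percentile of those bins (74.8, 78.5, 85.8 and 74.4) in 3 libraries, and above the 90th percentile in the first PCT4961 library.

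Detected fragments traced the same steps. At 10 to 15 Mb the share was 20.5% and 22.7% in PCT4961 and 17.7% and 17.4% in TEPC1165, which was the highest of the 19 bins in each library. The trough at 15 to 20 Mb had 2.57%, 3.25%, 2.94% and 2.94%, and the bin at 25 to 30 Mb 17.8%, 17.1%, 15% and 15.1%. At 45 to 50 Mb the share was 1.198%, 0.958%, 1.08% and 0.838%. The median bin of other autosomes had 0.829%, 0.724%, 0.786% and 0.618%, and their highest bins 3.50%, 3.68%, 2.88% and 3.25%. Of the 19 interior bins, 9, 8, 9 and 8 lay above the highest of the 413 full bins on other autosomes by this measure, and 18 lay above their median in each library.

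**Figure D2:**
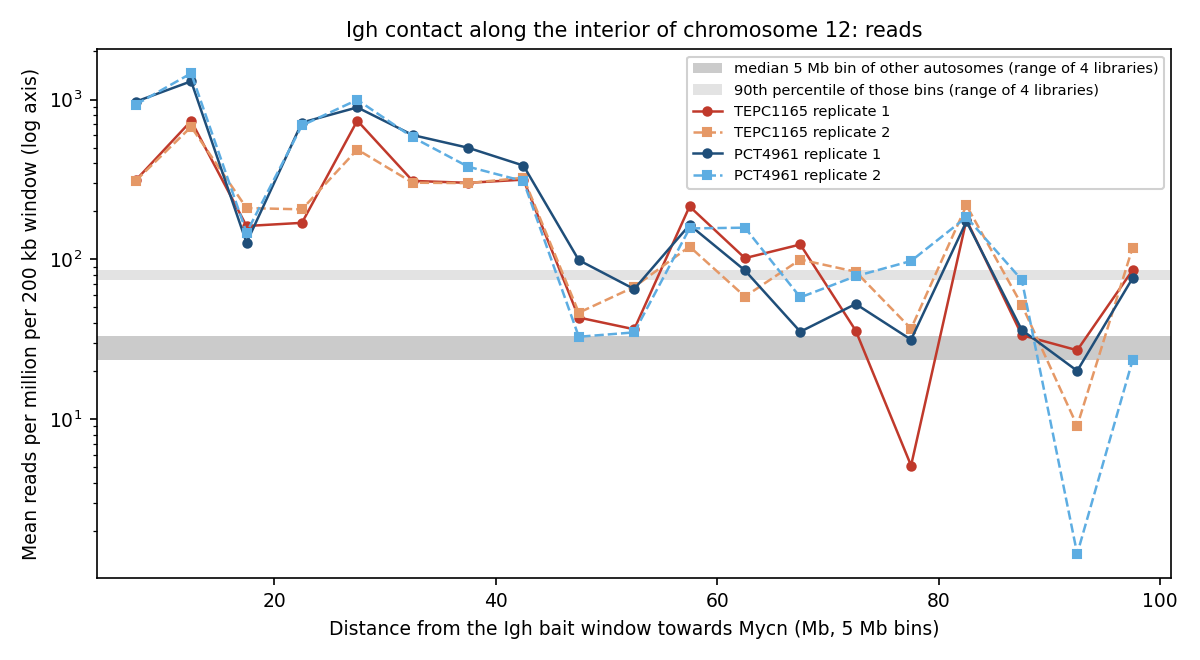
Mean RPM per 200 kb window (log axis) in each 5 Mb bin by distance from the Igh bait window, 1 line per library, with grey bands for the median and 90th percentile of the bins of other autosomes. Lines run at 675 to 1461 at 10 to 15 Mb, dip to 127 to 209 at 15 to 20 Mb, and fall to 32.8 to 98.8 at 45 to 50 Mb.

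**Figure D3:**
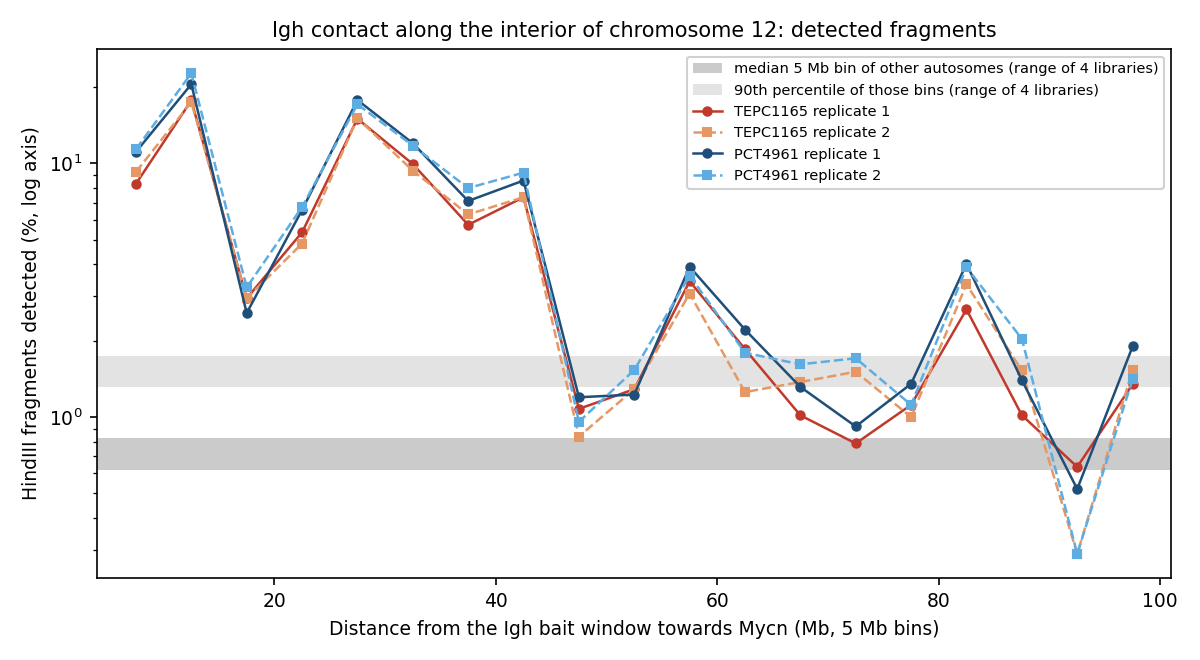
Percentage of HindIII fragments detected (log axis) in the same bins and libraries, with the same bands for other autosomes. The lines of the 2 tumors follow each other, with peaks of 17.4% to 22.7% at 10 to 15 Mb and about 15% to 17.8% at 25 to 30 Mb. What libraries of the same number share was not removed.

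The 200 windows at 5 to 45 Mb from Igh held 86.8% and 86.0% of the interior reads in PCT4961 and 77.5% and 75.6% in TEPC1165. The 273 windows at 45 to 100 Mb held 13.2%, 14.0%, 22.4% and 24.2%. In the nearer zone 10.6%, 11.04%, 8.87% and 8.88% of fragments were detected, and in the farther zone 1.81%, 1.80%, 1.48% and 1.54%. This limit at 45 Mb was placed after the values had been seen. The farther zone still exceeded the other autosomes in detected fragments in each library. Windows with no read in any library numbered 4 in the nearer zone and 83 in the farther one.

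Within the farther zone contact was uneven. The bin at 80 to 85 Mb from Igh (29.6 to 34.6 Mb) had 173 and 184 RPM per window in PCT4961 and 177 and 218 in TEPC1165, with 4.02%, 3.89%, 2.66% and 3.34% of fragments detected. A second raised bin, at 55 to 60 Mb (54.6 to 59.6 Mb), had 164, 156, 214 and 120 RPM per window and 3.91%, 3.61%, 3.43% and 3.07% of fragments. Both had a higher share of detected fragments than the trough at 15 to 20 Mb, far nearer to Igh, in 3 of 4 libraries for the first (2.66% against 2.94% in the first TEPC1165 library) and in 4 of 4 for the second. The lowest bin of both tumors by the mean of the libraries was at 90 to 95 Mb (19.6 to 24.6 Mb). It had 20.04 and 1.43 RPM per window in PCT4961 and 26.97 and 9.07 in TEPC1165, below the median bin of other autosomes in each library. These values are near the floor: 9, 5, 11 and 5 of its 1729 fragments were detected. Its 2 highest windows held 22.7% and 98.0% of its reads in PCT4961 and 97.5% and 99.7% in TEPC1165. In TEPC1165 replicate 1 alone the bin at 75 to 80 Mb was lower, with 5.12 RPM per window. The partial bins at the ends held 1 window, 12:109600001-109800000, with 85, 39, 95 and 177 reads, and the 2 windows of 12:14200001-14600000 with no reads in any library.

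In the 15 Mb nearest Mycn the order of the tumors depended on the measure. The 18 windows within 5 Mb of the Mycn-side window held 1744 and 767 reads in PCT4961 and 3499 and 4251 in TEPC1165, with 2.09%, 1.66%, 1.48% and 1.66% of fragments detected. The next 5 Mb held 778 and 79 reads in PCT4961 and 1379 and 742 in TEPC1165. The bin at 10 to 15 Mb from that window held 945, 679, 1454 and 1990 reads, but there 1.26% and 1.32% of fragments were detected in PCT4961 against 0.962% and 1.14% in TEPC1165. In none of these 3 bins was RPM higher in both PCT4961 libraries than in both TEPC1165 libraries, and in the first the reverse order held. By detected fragments PCT4961 was above TEPC1165 in the third of these bins, and the tumors overlapped in the other two. As a description over bins that share libraries and neighbouring sequence, Spearman's rho between distance from Igh and RPM per window was -0.82 in PCT4961 and -0.72 in TEPC1165 over 19 bins. By distance from the Mycn-side window it was 0.87 and 0.78 over 18 bins. That distance is the same axis read from the other end, so these values add no separate result.

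Contact of the interior came in runs of neighbouring windows. An island was a run of windows that each had at least 10 reads and 2 detected fragments in both libraries of a tumor. TEPC1165 had 34 islands with 136 of the 476 windows (28.6%), against 1.76% of the windows of other autosomes, where single chromosomes ranged from 0.320% to 3.27%. PCT4961 had 38 islands with 162 windows (34.0%), against 3.41% elsewhere (1.21% to 5.50% by chromosome). Of these, 19 islands in TEPC1165 and 21 in PCT4961 had at least 2 windows. The longest had 20 and 21 windows, and the longest on the other autosomes 3 and 4.

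The 2 tumors shared most island windows. Of the island windows, 130 were common to both, which is 95.6% of those of TEPC1165 and 80.2% of those of PCT4961. Same-numbered libraries of different tumors shared 82.0% to 95.4% of the interior windows seen in the first, and libraries of 1 tumor 72.0% to 80.6%, so the overlap of the tumors includes whatever same-numbered libraries share. TEPC1165 alone had 6 and PCT4961 alone 32, and 308 windows were in islands of neither. The 130 windows were seen in all 4 libraries, so by definition they are also part of the pairs that share neither tumor nor number. Such pairs may still carry what same-numbered libraries share. Of those pairs, TEPC1165 replicate 1 with PCT4961 replicate 2 gave 144 windows (30.3%, and 2.36% elsewhere), and TEPC1165 replicate 2 with PCT4961 replicate 1 gave 151 (31.7%, and 2.30% elsewhere). Over interior windows, Spearman's rho of detected fragments was 0.77 and 0.73 within the tumors PCT4961 and TEPC1165, and 0.77 and 0.73 in the 2 crossed pairs. It was 0.92 and 0.91 between libraries of the same number (476 windows each, descriptions only).

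**Figure D4:**
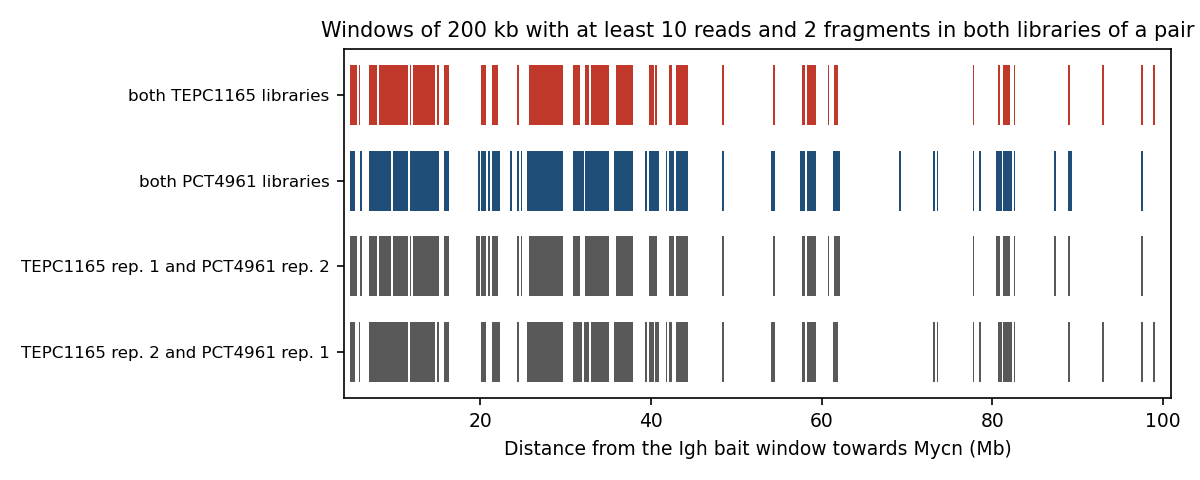
Bars mark the interior windows with at least 10 reads and 2 fragments in both libraries of a pair, by distance from the Igh bait window in Mb, for both libraries of each tumor and for the 2 pairs that differ in tumor and replicate number. The 4 tracks hold 136, 162, 144 and 151 windows, dense up to about 45 Mb and sparse beyond.

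Islands lay mainly in the nearer zone. They took in 112 of its 200 windows in TEPC1165 and 128 in PCT4961, and 23 and 33 of the 273 windows beyond. The longest island of each tumor ran from 84.8 Mb to 88.8 Mb in TEPC1165 and to 89.0 Mb in PCT4961. Its PCT4961 form held 22565 and 33529 reads in PCT4961 and 32010 and 19099 in TEPC1165, so that the tumors overlapped in raw reads. Scaled to reads outside the bait region it had 1025 and 1168 RPM per window in PCT4961 and 878 and 579 in TEPC1165. On that scale the tumors did not overlap, while divided by all reads of a library they did. The islands next in length in TEPC1165 lay at 103.0 to 106.4 Mb, 99.8 to 102.4 Mb, 79.4 to 81.6 Mb and 76.6 to 78.6 Mb. Those of PCT4961 lay at 99.4 to 102.8 Mb, 79.4 to 82.2 Mb, 105.0 to 107.6 Mb and 76.6 to 78.8 Mb. Of the 5 longest in PCT4961, that at 105.0 to 107.6 Mb differed most in reads between the tumors, with 21092 and 27062 in PCT4961 and 6927 and 7537 in TEPC1165.

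The island windows held most of the interior signal. They took 92.4% and 91.3% of the interior reads in PCT4961 and 80.0% and 77.8% in TEPC1165. Inside them 14.18%, 14.5%, 13.2% and 13.2% of fragments were detected, and outside them 1.12%, 1.27%, 1.24% and 1.33%. The definition of an island uses reads and fragments, so this contrast is a description. It leaves the interior outside islands above the mean of other autosomes in each library, although the latter includes windows that would count as islands.

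Contact was higher where HindIII sites were sparser. The 120 interior windows with 38 to 58 fragments had 10.1%, 10.1%, 7.85% and 7.89% of their fragments detected, and the 111 windows with 72 to 92 fragments 2.71%, 2.62%, 2.25% and 2.18%. Spearman's rho between fragments per window and the share detected was -0.30 to -0.27 over the 476 windows, and -0.17 to -0.13 over the 10911 windows of other autosomes. Over the 19 bins it was -0.75 to -0.65. Island windows of PCT4961 had 61.9 fragments on average and the other interior windows 66.2. The part of HindIII density in the steps along the interior was not tested.

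Reads per 5 Mb bin were higher in PCT4961 than in TEPC1165 in 3 of the 19 interior bins, all within 25 Mb of Igh, and lower in 0. Across the genome 1.5% of 532 bins were called higher and 1.69% lower. These calls came from edgeR (quasi-likelihood, Benjamini-Hochberg over all tested bins), in which 5 interior bins had an unadjusted p under 0.05. DESeq2 called 4 interior bins higher and 0 lower, and 32 of the 532 bins (6.02%) in either direction, where edgeR called 17 (3.2%). Chromosome 15 took 98.0 and 121 reads per window in PCT4961 and 1409 and 1551 in TEPC1165, and RPM are shares of a whole that includes it. With the reads of the other autosomes alone as library size the same 3 bins passed. Compared with scaling by all reads, that setting too raises PCT4961 relative to TEPC1165.

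In the bin at 5 to 10 Mb (104.6 to 109.6 Mb) PCT4961 had 970 and 930 RPM per window and TEPC1165 313 and 311. The log2 fold change was 1.75 (standard error 0.41, edgeR adjusted p = 0.00106). In the bin at 10 to 15 Mb, whose values stand above, it was 1.12 (standard error 0.34, edgeR adjusted p = 0.0372). In the bin at 20 to 25 Mb (89.6 to 94.6 Mb) PCT4961 had 718 and 688 RPM per window and TEPC1165 169 and 206, a log2 fold change of 2.04 (standard error 0.48, edgeR adjusted p = 0.000945). Both PCT4961 libraries were above both TEPC1165 libraries in these 3 bins. Divided by all reads of a library they stayed above, with smaller differences. Between libraries of the same number the log2 ratio of RPM was 1.63 and 1.58 in the first of these bins, 0.82 and 1.11 in the second, and 2.08 and 1.74 in the third.

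The difference was smaller without a few high windows, while leaving out a library changed its test more than its size. The 2 highest windows of the bin at 20 to 25 Mb held 64.6% and 69.4% of its reads in PCT4961 and 35.6% and 60.9% in TEPC1165. Without the 2 highest windows of each interior bin the log2 fold changes were 1.40, 0.86 and 1.39, and none of the 3 passed (edgeR adjusted p = 0.146, 0.427 and 0.605). That check was chosen after the data were seen. With any 1 library left out, the log2 fold changes were 1.57 to 1.87, 1.00 to 1.25 and 1.73 to 2.32 in the 3 bins, and 0 of the 3 passed with fewer libraries in the fit (edgeR adjusted p from 0.0581 to 0.988). The share of detected fragments differed less than the reads: its ratio of PCT4961 to TEPC1165 was 1.28, 1.23 and 1.31 in the 3 bins, where the ratio of RPM was 3.05, 1.96 and 3.75. A fragment counts as detected with 1 read. Detected fragments per interior window had a Spearman's rho of 0.92 and 0.91 between same-numbered libraries of the 2 tumors. Within the tumors it was 0.77 and 0.73. How far this sharing brought the fragment shares of the tumors together was not tested.

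**Figure D5:**
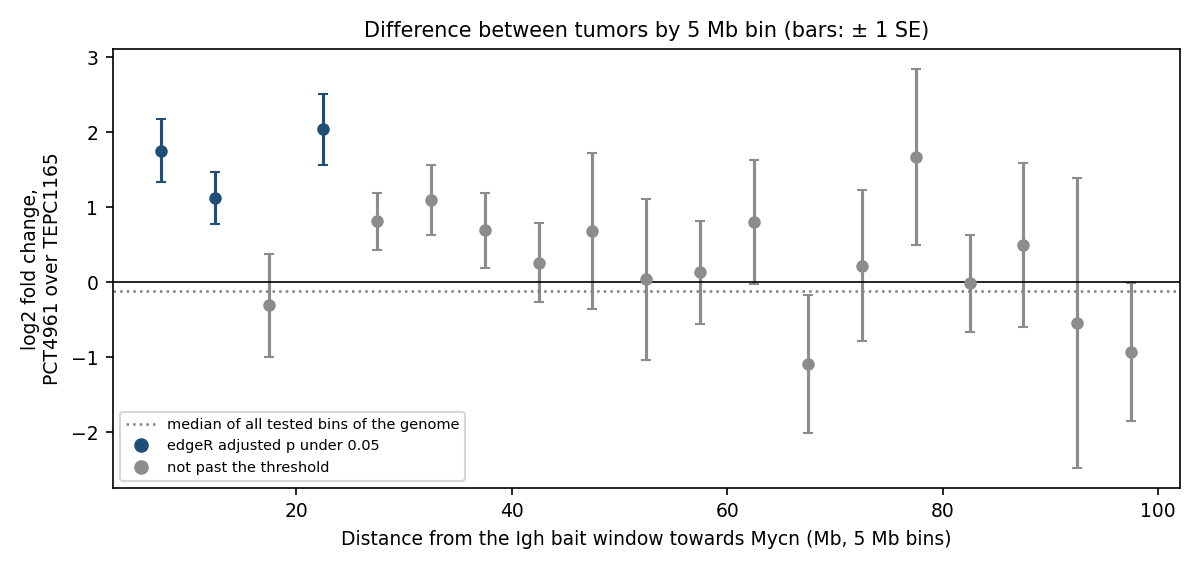
Log2 fold change of reads (PCT4961 over TEPC1165, edgeR) in each 5 Mb bin by distance from the Igh bait window, with bars of 1 standard error and a dotted line at the median of all tested bins. The 3 bins past the threshold, at 1.75, 1.12 and 2.04, lie within 25 Mb of Igh.

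The other bins nearer than 40 Mb mostly leaned the same way without passing the test. RPM was higher in both PCT4961 libraries than in both TEPC1165 libraries in 6 of the 7 full bins within 40 Mb and in 0 of the 12 beyond. The reverse order held in 1 bin within 40 Mb, the trough at 15 to 20 Mb, and in 2 beyond. Over all 532 bins PCT4961 was above in 15% and TEPC1165 in 20.3%. The limit of 40 Mb was set with the values known. These orders are of RPM, which leave out the bait region. Divided by all reads of a library, the tumors overlapped at 25 to 30 Mb and at 35 to 40 Mb. The log2 fold change was 0.81 at 25 to 30 Mb (standard error 0.38, edgeR adjusted p = 0.517) and 1.10 at 30 to 35 Mb (standard error 0.47, edgeR adjusted p = 0.360). The median log2 fold change was 1.10 in the 7 nearer bins, 0.18 in the 12 farther ones and -0.11 over all bins of the genome. By detected fragments PCT4961 was above in 9 of the 19 bins and TEPC1165 in 0, where 19.5% and 2.82% of all bins gave that order.

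By single 200 kb window the edgeR test called 0 of the 271 interior windows that had at least 10 reads in at least 2 libraries, and the other 205 were not tested. Of these 271 windows 8 had an unadjusted p under 0.05, and DESeq2 also called 0, with 8 unadjusted. Across the genome 0.348% of 3449 windows were called higher and 0.174% lower in PCT4961. The smallest edgeR adjusted p of an interior window was 0.231. In simulated counts with the spread of these data the test called 0 of 62 windows changed 64-fold. Those 62 were drawn from all 3449 tested windows, so they do not give the power for interior windows with many reads. With 2 libraries per tumor, the lack of called windows does not show that the tumors were alike in them. In 75 tested windows (27.7%) both PCT4961 libraries were above both TEPC1165 libraries in RPM, where 16.2% of all tested windows were. The reverse held in 24 (8.86%, and 9.25% of all), and in 172 the tumors overlapped. The median log2 fold change of the tested interior windows was 0.69, and that of all tested windows -1.01. Both moved with the settings: they were 0.29 and 0.031 with no filter on low reads, 0.75 and -0.28 with a replicate block, 1.62 and 0.84 without the first TEPC1165 library, and 2.14 and 0.84 without the second.

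The windows with most reads in PCT4961 lay in the called bins. The highest, 12:93000001-93200000, held 7264 and 8599 reads on 21 and 16 fragments in PCT4961 and 590 and 1706 reads on 16 and 13 fragments in TEPC1165. Its log2 fold change was 3.38 (standard error 0.92, edgeR adjusted p = 0.231). Its neighbour 12:92800001-93000000 held 4878 and 7733 reads on 31 and 31 fragments in PCT4961 and 2022 and 3207 on 24 and 22 in TEPC1165, and was among the 5 highest windows of both tumors. In both windows the PCT4961 libraries were the higher ones, and they differed more in reads than in detected fragments.

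Closer to Igh, 12:106200001-106400000 held 6390 and 6367 reads in PCT4961 and 976 and 643 in TEPC1165 (3.62 on the log2 scale with a standard error of 0.99, edgeR adjusted p = 0.234). 12:102200001-102400000 held 5348 and 6761 against 692 and 1283 (3.24 on the log2 scale with a standard error of 1.00, edgeR adjusted p = 0.502). 12:107000001-107200000 held 4093 and 4274 against 2079 and 2334 and was high in both tumors. In 12:107200001-107400000 the PCT4961 libraries themselves differed, with 1474 and 6425 reads against 418 and 438 in TEPC1165. The largest fold among the 5 windows of smallest p that leaned to PCT4961 was that of 12:87800001-88000000, with 1476 and 2413 reads on 7 and 14 fragments against 30 and 41 reads on 7 and 8 fragments. Its log2 fold change was 6.37 (standard error 2.11, edgeR adjusted p = 0.749), while 7 or 8 fragments were detected in 3 of the 4 libraries. In TEPC1165 those fragments rest on 30 and 41 reads, and the part of sharing between same-numbered libraries in them was not tested.

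Among the windows that leaned to TEPC1165, 12:98400001-98600000, inside the trough, had 97 and 133 reads from PCT4961 but 2006 and 2333 from TEPC1165 (-3.55 on the log2 scale with a standard error of 2.16, edgeR adjusted p = 0.795). The groups did not overlap there, but detected fragments did, at 9 and 6 in TEPC1165 and 7 and 4 in PCT4961. 12:87200001-87400000 had 2967 and 2551 reads from TEPC1165 against 419 and 1419 from PCT4961, and 12:104200001-104400000 had 3857 and 1857 against 1110 and 1491. The other 4 windows of smallest p in this direction began at 16.6, 33.6, 46.2 and 77.0 Mb, with log2 fold changes of -3.89, -2.66, -3.43 and -2.43 and an edgeR adjusted p of 0.795 each. At 16.6 Mb the reads of TEPC1165 (1186 and 757) came from 1 detected fragment in each library.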

How the data were processed

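Igh 4C libraries of the plasmacytomas PCT4961 and TEPC1165 were used, 2 of each. The deposited tables give, per the file headers, raw read counts, HindIII fragments and fragments with reads per 200 kb window of mm9. How reads were aligned, where the bait fragment lies and whether PCR copies were removed is not given in the sources used here, so 1 fragment amplified strongly can set a window's reads. The authors' counts of reads were tested with edgeR 4.0.16 (R 4.3.3) on all windows, or sums in 5 Mb bins, without the 11 windows around the bait. Settings were at least 10 reads in at least 2 libraries, Benjamini-Hochberg adjustment over all features, a two-sided threshold of 0.05, TMM scaling, a model with tumor alone, and a prior count of 2. Depth was 1668589 to 2178689 reads per library; windows at a few reads carry wide counting error.

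Single values were compared by exact permutation over libraries (Python 3.11.15, scipy 1.17.1, pandas 2.3.3). Alternatives were DESeq2 1.42.0, other scalings and filters, a replicate block, other island rules and bins, and leaving out each library. Named windows were any called, the 5 of most reads in the lower library of each tumor, the 5 of smallest p in each direction, and the 5 longest islands of each tumor. All bins were described. The interior, its lists and its rules were chosen with earlier results of these data known. Simulated counts with known changes, in features drawn at random from all tested windows or bins of the genome, were used to test the edgeR step. With the spread estimated from these data it called 0 of 83 windows changed 8-fold and 0 of 62 changed 64-fold. For bins it called 10 of 68 and 46 of 63. With 10% of that spread it called 32 of 105 and 87 of 93 windows, and 69 of 69 and 64 of 64 bins. Gene order came from RefSeq (GRCm38), of another build than the windows.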

Additional observations from a re-analysis of the deposited data

How the results depend on the processing

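The count of 0 called interior windows was 2 with reads outside the bait region as library size and no TMM factors. It was 2 with the reads of other autosomes, and 1 with no filter. Scaling the test by all reads, bait region included, was not run. Leaving out 1 library at a time gave 0 to 10 (10 without TEPC1165 replicate 1 and 6 without TEPC1165 replicate 2, with 0 lower in PCT4961). A lone library was then assumed to vary like the other tumor's. The 3 called bins became 0 without any 1 library (0 to 0), with log2 fold changes of 1.57 to 1.87, 1.00 to 1.25 and 1.73 to 2.32 against 1.75, 1.12 and 2.04, and 0 without the 2 highest windows of each bin, 2 with at least 50 reads (the bin at 10 to 15 Mb then had an edgeR adjusted p of 0.0673), 2 with bin edges shifted by 2.5 Mb and 4 with DESeq2. With a replicate block, 3 bins and 0 windows were called, and 17 windows had an unadjusted p under 0.05. The labels do not pair the libraries. Deviations of libraries with the same number went together (r = 0.72 over 3449 windows, 0.53 over 271 interior windows, 0.28 over 532 bins), which is a hint from the data. The log2 difference in reads (0.84) ran from 0.75 to 0.93 with a library left out. It was 0.72 in the windows more than 20 Mb from the bait window, which include those at 25 to 45 Mb. That in detected fragments (0.091) ran from -0.048, reversed without TEPC1165 replicate 1, to 0.23. Islands numbered 58 in TEPC1165 and 65 in PCT4961 with 1 read and 1 fragment required, 24 in PCT4961 with a gap of 1 window allowed, 50 to 50 in single TEPC1165 libraries and 54 to 55 in single PCT4961 ones. The rho with distance was -0.87 and -0.88 in 10 Mb bins (TEPC1165, PCT4961), ran from -0.72 to -0.70 and from -0.82 to -0.75 with a library left out, and in PCT4961 was -0.69 by median RPM and -0.70 by detected fragments. Uncalled log2 fold changes reversed in 12:104200001-104400000 (-0.67 to 0.54 with a library left out, positive without either TEPC1165 one, at 0.54 and 0.24), 12:33600001-33800000 (-3.11 to 0.97, positive without TEPC1165 replicate 2), 12:87200001-87400000 (-1.98 to 0.11, likewise) and the bin at 90 to 95 Mb (-3.33 to 0.34, positive without PCT4961 replicate 2 and, at 0.13, without TEPC1165 replicate 1, and 4.399 without its 2 highest windows). The median log2 fold change of all windows moved from -1.01 to -1.70 with DESeq2 size factors, and that of the interior from 0.69 to -0.15. With no filter they were 0.031 and 0.29. The cause of these changes was not tested. The shifted edges, the dropped windows and the islands of single libraries were chosen after the data were seen.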
